A study of Mus musculus with 6 samples.

Results

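The genes followed here were Spi1, Spib, Spic, Ets2, Elf1, Elf4, Etv3, Etv6, Fli1 and Gabpa. They encode PU.1 (Spi1) and 9 other factors of the ETS family that are expressed in myeloid cells. They were taken by gene name from the deposited table, which held all 10 of them among 54532 genes. RNA-seq libraries were made from mouse dendritic cells labelled as control (3 libraries) or as treated with DB2313 (3 libraries), a small molecule that the study describes as an inhibitor of Spi1. The labels gave no dose, time, strain or age, and did not say whether the control received a vehicle or other factors. They called the cells dendritic cells, whereas the methods described macrophages elicited in the peritoneum and gave a DB2313 concentration for macrophages. The study also described monocytes given GM-CSF with or without DB2313 for a stated time, and called its sequenced DB2313-treated cells macrophages. The control columns of the table were headed BMDC, the common abbreviation of dendritic cells grown from bone marrow. The other columns were headed by the name Spi1. They were read as the DB2313 libraries, and each direction given here depends on that reading.

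ETS factors share a DNA-binding domain that recognizes a short core, GGAA, and they differ in the bases they prefer around it. PU.1, Spi-B (Spib) and Spi-C (Spic) form a subfamily of their own within the ETS family. PU.1 drives the development of macrophages and dendritic cells, Spi-B acts in B cells and plasmacytoid dendritic cells, and Spi-C acts in the macrophages of the spleen that recycle iron from red blood cells. Of the other genes, Ets2 encodes a target of Ras and MAP kinase signaling. Elf1 and Elf4 encode activators found across blood cells. Etv3 and Etv6 encode repressors, Fli1 a factor of blood and platelet precursors, and Gabpa the DNA-binding subunit of GABP, which acts with a beta subunit at housekeeping and mitochondrial genes.

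The bases before the transcription start are shown for members whose control and DB2313 libraries did not overlap, to let the ETS core be seen where such a factor could bind. These members were Spib, Spic, Ets2, Etv3 and Etv6. The sequences are from RefSeq (GRCm38.p6), which held windows for 8 of the 10 genes; Spi1 and Fli1 were not matched. They run 5′ to 3′ on the strand of the gene, and capitals mark GGAA or, for a core on the other strand, TTCC. For Spib (chr7:44532072-44532321, minus strand) and Etv6 (chr6:134035450-134035699, plus strand), the 250 bases lie outside the annotated exons. For Spic (chr10:88683024-88683273, minus strand), they lie within the annotated gene but in no exon. For Etv3 (chr3:87525328-87525406, plus strand), 79 bases precede the first annotated exon and are the ones shown. The 250 bases of Ets2 begin within an annotated exon and are not shown.
Spib: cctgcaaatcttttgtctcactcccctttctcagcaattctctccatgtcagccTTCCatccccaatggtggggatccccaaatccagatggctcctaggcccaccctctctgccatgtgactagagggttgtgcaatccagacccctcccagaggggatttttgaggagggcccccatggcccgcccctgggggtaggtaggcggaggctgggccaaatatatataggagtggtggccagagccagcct
Spic: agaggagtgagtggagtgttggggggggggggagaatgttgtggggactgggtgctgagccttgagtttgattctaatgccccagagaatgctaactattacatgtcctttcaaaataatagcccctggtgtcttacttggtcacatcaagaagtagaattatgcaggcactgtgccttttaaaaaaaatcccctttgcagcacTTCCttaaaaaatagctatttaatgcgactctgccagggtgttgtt
Etv6: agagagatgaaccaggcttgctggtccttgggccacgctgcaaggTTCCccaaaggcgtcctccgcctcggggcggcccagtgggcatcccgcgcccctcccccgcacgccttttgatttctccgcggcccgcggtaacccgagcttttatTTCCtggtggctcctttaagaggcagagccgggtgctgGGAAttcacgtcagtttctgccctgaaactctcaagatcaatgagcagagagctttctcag
Etv3: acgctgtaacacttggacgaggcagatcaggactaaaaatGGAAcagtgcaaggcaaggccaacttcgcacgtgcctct

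The core was counted in the whole window of 300 bases (250 before and 50 after the start), on both strands. It occurred 7 times for Etv3, 6 times for Etv6, 2 times for Spic and 1 time for each of Spib and Ets2. Of all 32851 windows, 95.98% held it, with a median of 3 matches, so its presence sets no gene apart. The longer motif GAGGAAGT, a form preferred by PU.1, was found in none of these 5 windows, in 1 window of Gabpa and in 3.20% of all windows. CCGGAAGT, a form preferred by GABP and most other ETS factors, was found in no window of the 8 genes and in 3.89% of all windows. Both longer motifs contain the core, and a match of letters is not a binding site.

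Total counts ranged from 16146743 to 19764677 per library. Every pair of replicates differed by more than sampling noise. The chi-square per degree of freedom was 4.77 to 5.28 for control pairs and 7.43 to 17.7 for DB2313 pairs, highest for replicates 1 and 3. Markers of dendritic cells were present, with a summed level of 8613 to 8781 CPM (counts scaled to a common library size by TMM) in control and 7282 to 8548 CPM with DB2313. In control, Itgax and Irf8 averaged 172 and 273 CPM, so most of this sum came from other genes of the list. Sums of different lists do not measure shares of cells. Marker genes of other cells were also detected, and which cells expressed them was not tested. Neutrophil markers summed to 3261 to 3657 CPM in control and 3446 to 4431 CPM with DB2313. The sums were 2257 to 2446 and 2276 to 2761 CPM for mast cells and basophils, and 234 to 280.5 and 258 to 324 CPM for T cells. Macrophage markers were at 1218 to 1281 and 998 to 1249.9 CPM. In such bulk samples, fewer cells of a type and less RNA per cell cannot be told apart.

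To compare the genes with each other, levels were expressed per gene length as RPKM (the CPM divided by the length in kilobases). Spi1 was the highest of the 10, at 136 ± 6.82 RPKM in control and 122 ± 7.47 RPKM with DB2313 (SD, n = 3 each). Its share of the summed RPKM of the 10 genes was 38.3% to 42.4% in control and 39.0% to 44.1% with DB2313. Etv3 followed in control at 48.9 ± 2.69 RPKM, then Etv6 (32.8 ± 1.76), Elf4 (30.1 ± 1.49), Spib (26.6 ± 1.66), Fli1 (19.2 ± 0.970), Elf1 (18.0 ± 0.621), Ets2 (13.3 ± 0.967) and Gabpa (8.29 ± 0.822 RPKM). Spic was last at 0.693 ± 0.168 RPKM, 11.96-fold below Gabpa. The order of the 10 genes was the same with DB2313. The libraries of Etv6 and Elf4 overlapped in both groups, as did those of Fli1 and Elf1 in control, whereas with DB2313 Spib overlapped Fli1 and Ets2 overlapped Gabpa. All other neighbours in this order were apart in all libraries of a group. The length used covers every annotated exon of a gene, so a gene read mainly from shorter transcripts appears lower on this scale.

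**Figure D1:**
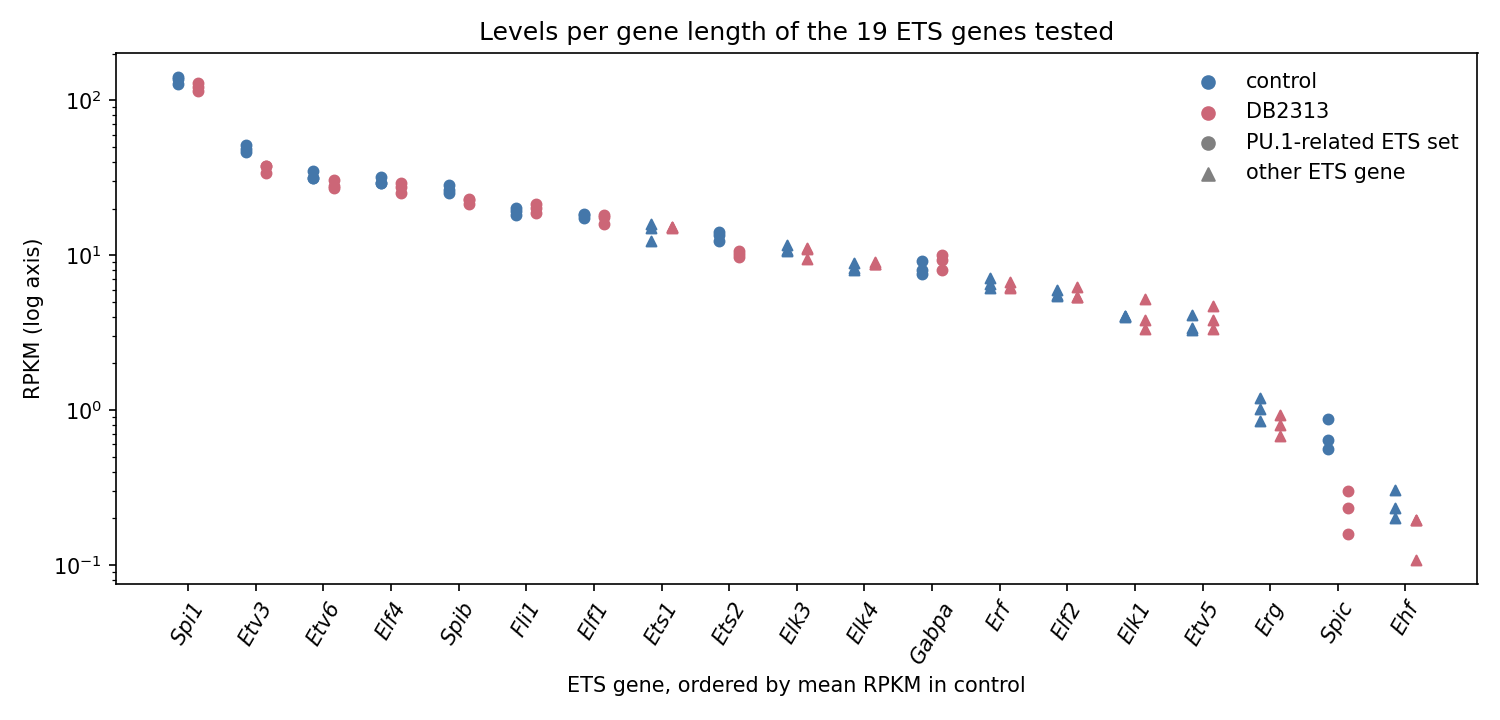
RPKM (log axis) of the 19 ETS genes tested in the 3 control (blue) and 3 DB2313 (red) libraries, ordered by the control mean, with circles for the 10 genes described and triangles for other ETS genes. Spi1 lies above all others and Spic and Ehf are the lowest.

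To ask whether DB2313 changed the expression of these factors, a quasi-likelihood model (edgeR) was fitted to the 14174 genes that passed a filter on low counts. A gene was called at a Benjamini-Hochberg adjusted p under 0.05, and ± after a log2 fold change is its SE. All 10 genes passed the filter, but Spic did so through the control libraries, where it was higher. Spic is included in the counts below. Etv3, Ets2 and Spic fell with DB2313, and none rose in edgeR, DESeq2 or limma-voom. Thus 3 of 10 were called lower, whereas 5.94% of all genes tested were called lower, 4.66% higher and 10.6% in either direction. Without control replicate 2, only 1 of the 10 was called. The unadjusted p was under 0.05 for 6 of the 10 genes, all with a lower mean, and for 23.3% of all genes. The groups did not overlap for 5 of the 10 genes and for 27.4% of all genes tested. In these 5, each DB2313 library was below each control library, as in 14.5% of all genes. The opposite order was found for none of the 10 and for 12.9% of all genes. The median log2 fold change of the 10 genes was -0.18, and that of all genes tested was 8.2e-04. The 10 genes were written down with earlier results of these data known, so these shares are not a test of the set.

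**Figure D2:**
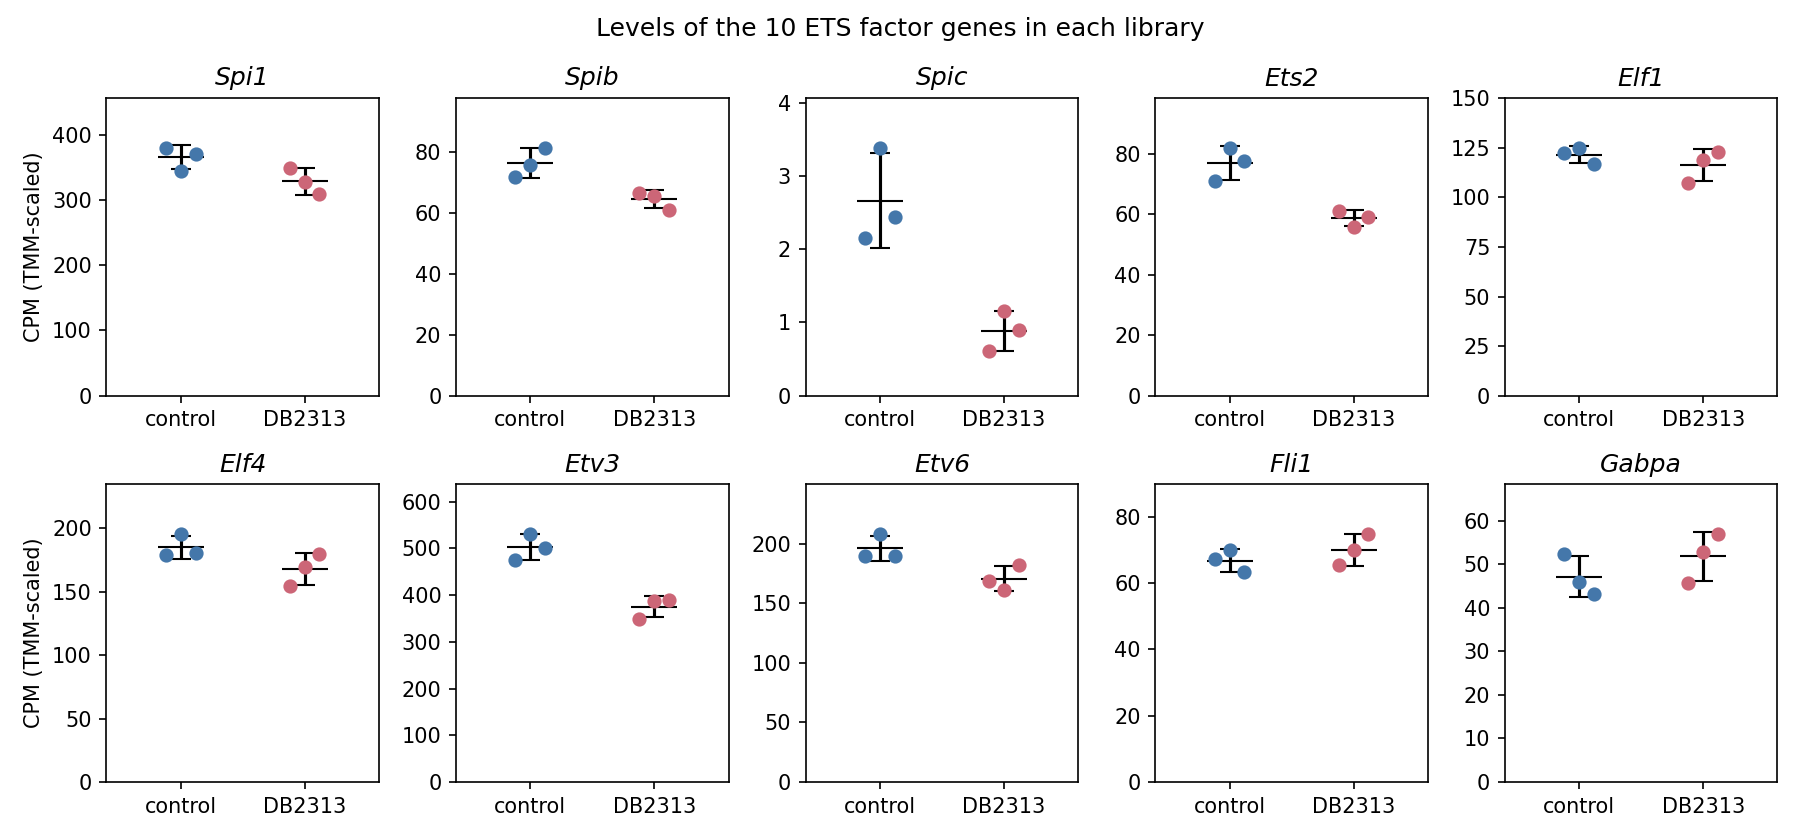
CPM of each of the 10 genes in each library, with control in blue and DB2313 in red. Horizontal lines are means and bars are SD (n = 3), and Spib, Spic, Ets2, Etv3 and Etv6 show no overlap between groups.

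Within the PU.1 subfamily, Spi1 (ENSMUSG00000002111, on the plus strand of chromosome 2 from 91082390 to 91115756) had levels of 380.4, 345 and 371 CPM in control replicates 1 to 3 and of 349, 328 and 309 CPM in DB2313 replicates 1 to 3. The groups overlapped, since DB2313 replicate 1 lay above control replicate 2. The difference did not pass the test (log2 fold change -0.15 ± 0.07, 95% interval -0.31 to -0.0022, edgeR adjusted p = 0.206). With an offset for gene length in place of none, it was -0.18 and the edgeR adjusted p was 0.0433. The interval of Spi1 did not reach that of Spic.

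Spib (ENSMUSG00000008193, chromosome 7, 44525993 to 44532071, minus strand) was at 71.8, 75.6 and 81.3 CPM in control and at 66.4, 65.5 and 61.0 CPM with DB2313. The groups did not overlap, and DB2313 was lower by a small margin. The threshold was missed (log2 fold change -0.24 ± 0.08, 95% interval -0.42 to -0.07, edgeR adjusted p = 0.0680). The edgeR adjusted p was 0.0175 with the gene-length offset and 0.0421 without DB2313 replicate 1. The B cell markers Ms4a1 and Pax5 had at most 5 counts in any library. The B cell list as a whole was at 6.71 to 7.07 CPM in control and 6.87 to 8.14 CPM with DB2313, and 0 of the 2 B cell markers tested were called in edgeR, DESeq2 or limma-voom. Both had an unadjusted p under 0.05 in edgeR, in opposite directions (Cd22, log2 fold change -0.89, and Cd79b, 0.70), and both were called without DB2313 replicate 3. Of the plasmacytoid markers, Siglech had 0 to 8 counts and Klk1 had 0. That list summed to 187 to 211 CPM in control and 191 to 213 CPM with DB2313, most of it from Bst2, a gene also induced by interferon in other cells, and 0 of its 4 tested genes were called.

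Spic (ENSMUSG00000004359, chromosome 10, 88674772 to 88685015, minus strand) had the largest change of the set. It had 35, 54 and 39 counts in the control libraries and 10, 23 and 15 in the DB2313 libraries, or 2.15, 3.39 and 2.45 CPM against 0.607, 1.15 and 0.901 CPM. The groups did not overlap, and the mean with DB2313 was 2.95-fold lower by the fit. This difference passed the test (log2 fold change -1.56 ± 0.38, 95% interval -2.37 to -0.75, edgeR adjusted p = 0.0146), although the counts are few. Spic passed the filter through the control libraries, all 3 of which were above its cutoff of 0.613 CPM, as were 2 of the DB2313 libraries. Without control replicate 2, its highest library, the log2 fold change was -1.35 and the edgeR adjusted p was 0.108. A stretch of 343 bp, 19.5% of 1 of its 4 annotated transcripts, matches 62 other genes (at least 95% identity over 100 bp or more), so some of its reads could belong elsewhere.

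Ratios within a library do not depend on its scaling. The ratio of Spi1 to Spib RPKM was 4.86 to 5.64 in control and 5.33 to 5.59 with DB2313, and the groups overlapped. The ratio of Spi1 to Spic RPKM was 145 to 252 in control and 406 to 819 with DB2313, with no overlap. With 3 libraries in each group, the smallest p an exact permutation test can reach is 0.1 (two-sided), so the ratios were not tested.

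Etv3 (ENSMUSG00000003382, chromosome 3, 87525407 to 87540156, plus strand) encodes a repressor linked to the arrest of cell division in macrophages. It fell from 476, 531 and 501 CPM in control to 349.6, 387 and 389 CPM with DB2313. The highest DB2313 library was far below the lowest control library. The mean was 1.34-fold lower (log2 fold change -0.42 ± 0.07, 95% interval -0.57 to -0.27, edgeR adjusted p = 0.00133). The call held in all 15 alternatives of scaling, filter, test, offset, block and omitted library, with log2 fold changes of -0.46 to -0.35. Among them the adjusted p of Etv3 was at most 0.0174.

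Etv6 (ENSMUSG00000030199, chromosome 6, 134035700 to 134270158, plus strand), the other repressor, was at 189.9, 208 and 189.9 CPM in control and at 168, 161 and 182 CPM with DB2313. The groups did not overlap, but the gap between them was smaller than the spread within either. Etv6 did not pass (log2 fold change -0.20 ± 0.07, 95% interval -0.36 to -0.04, edgeR adjusted p = 0.102). Without DB2313 replicate 3 it was -0.25, with an edgeR adjusted p of 0.0175.

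Ets2 (ENSMUSG00000022895, chromosome 16, 95702075 to 95721051, plus strand) fell from 71.0, 82.0 and 77.7 CPM in control to 61.1, 55.9 and 58.9 CPM with DB2313. Every DB2313 library was below every control library. The mean was 1.31-fold lower (log2 fold change -0.39 ± 0.08, 95% interval -0.57 to -0.21, edgeR adjusted p = 0.00652). The call was lost without control replicate 2 (-0.34, edgeR adjusted p 0.0591) and without DB2313 replicate 2 (-0.36, edgeR adjusted p 0.0593).

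The remaining activators did not pass the test. Elf1 (ENSMUSG00000036461, chromosome 14, 79481194 to 79582494, plus strand) was at 123, 125 and 117 CPM in control and 107, 119 and 123 CPM with DB2313. Elf4 (ENSMUSG00000031103, chromosome X, 48411046 to 48463132, minus strand) was at 179, 196 and 181 CPM in control and 155, 169.8 and 179.8 CPM with DB2313. DB2313 replicate 1 was the lowest library for both, and the groups overlapped. The changes were small for Elf1 (log2 fold change -0.06 ± 0.08, 95% interval -0.22 to 0.10, edgeR adjusted p = 0.679) and Elf4 (-0.14 ± 0.08, -0.30 to 0.02, edgeR adjusted p = 0.290).

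Fli1 (ENSMUSG00000016087, chromosome 9, 32422204 to 32542861, minus strand) was at 67.3, 70.0 and 63.3 CPM in control and 65.4, 70.0 and 74.9 CPM with DB2313. The groups overlapped, with DB2313 replicate 3 the highest. No difference was called (log2 fold change 0.07 ± 0.08, 95% interval -0.11 to 0.24, edgeR adjusted p = 0.685). Platelets and endothelial cells are rich in Fli1, and their markers summed to 216 to 232 CPM in control and 228 to 264 CPM with DB2313, with 0 of 5 tested called.

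Gabpa (ENSMUSG00000008976, chromosome 16, 84834925 to 84863779, plus strand) was at 52.3, 45.9 and 43.2 CPM in control and 45.8, 52.7 and 57.0 CPM with DB2313. The groups overlapped, with the highest value in DB2313 replicate 3. Gabpa was not called (log2 fold change 0.14 ± 0.10, 95% interval -0.08 to 0.35, edgeR adjusted p = 0.466). Gabpa and Elf1 share 397 and 327 bp of exon with Atp5j and Wbp4 on the opposite strand, and no source stated whether the libraries kept strand. These shared bases were 6.98% and 4.85% of the exons of Gabpa and Elf1. Etv6 likewise shares 135 bp, 2.26% of its exons, with Gm17089. A near-identical stretch of 232 bp lies in Etv3 and its paralog Etv3l. The only such match of Etv6, of 145 bp, was to the same Gm17089, and the only match of Gabpa was to the overlapping Atp5j. Such stretches also link Elf1 to 7 genes, among them the overlapping Wbp4, and Spib to 2. How reads with several matches were counted was not given in the sources used here.

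The family was then completed. The deposited table marked 26 genes as ETS factors, the 10 above and 16 others, of which 9 passed the filter. Of these 9, 0 were called in edgeR, DESeq2 or limma-voom, and 0 had an unadjusted p under 0.05 in edgeR. Ets1, the highest of them, was at 14.5 ± 1.82 RPKM in control and 15.2 ± 0.123 RPKM with DB2313 (SD, n = 3 each). Its mean was above that of Ets2 in both groups, but the libraries of Ets1 and Ets2 overlapped in control. The median log2 fold change of these 9 genes was 0.0037. For 1 of them, Ehf, each DB2313 library was below each control library in CPM, as in 14.5% of all genes tested. Ehf had at most 27 counts in any library (log2 fold change -0.58, edgeR adjusted p = 0.458). The intervals of the low genes Ehf (-1.48 to 0.33) and Erg (-0.90 to 0.23) were wide and include changes as large as those of Etv3 and Ets2.

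**Figure D3:**
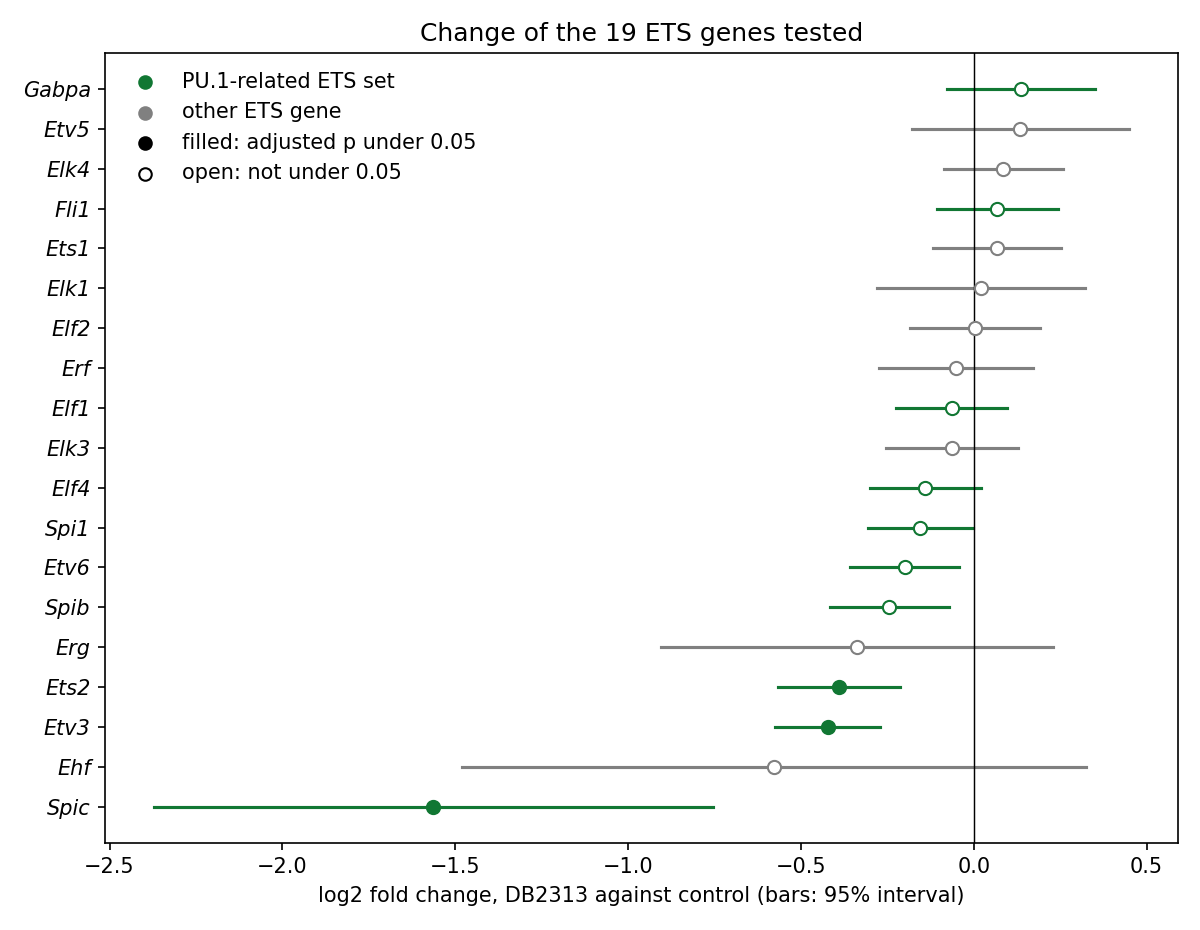
Log2 fold change (DB2313 against control) of the 19 ETS genes tested, with 95% intervals. Filled points have an edgeR adjusted p under 0.05, which holds for Spic, Etv3 and Ets2.

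The partners of these factors were listed next. Of 9 partner genes tested, 1 fell, none rose and 8 did not pass, so 11.1% were called, against 10.6% of all genes tested. The unadjusted p in edgeR was under 0.05 for 4 of the 9 (Irf4, Irf8, Gabpb2 and Cebpb), all lower, and for 23.3% of all genes. In edgeR 3 were lower without DB2313 replicate 1, and 2 without DB2313 replicate 3 or with the gene-length offset. The gene called with all libraries was Irf4, an interferon regulatory factor that binds DNA together with PU.1 or Spi-B. Irf4 had 152 ± 11.6 CPM in control against 113 ± 2.19 CPM in treated cells (SD, n = 3 each). The call (log2 fold change -0.43 ± 0.08, edgeR adjusted p = 0.00180) held in all 15 alternatives. Irf8, which also pairs with PU.1, had a log2 fold change of -0.16 and an edgeR adjusted p of 0.207. The beta subunits of GABP, Gabpb1 and Gabpb2, had log2 fold changes of -0.13 and -0.24, with edgeR adjusted p of 0.479 and 0.156. The 6 GABP target genes include the mitochondrial transcription factors Tfam, Tfb1m and Tfb2m. None of the 6 was called with all libraries in edgeR, DESeq2 or limma-voom, and 1 had an unadjusted p under 0.05 in edgeR. Without DB2313 replicate 1, 1 was called higher in edgeR. With all libraries, the median log2 fold change of the 6 was 0.017 and the highest was 0.41.

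Because Spic fell, the genes of iron recycling were read beside it. Of 5 genes listed, Slc40a1 and Hmox1 rose, Cd163 fell, and Bach1 and Vcam1 did not pass. Thus 60% were called, against 10.6% of all genes tested, in a list written with earlier results of these data known. Slc40a1, the iron exporter ferroportin, rose from 72.5, 61.7 and 67.6 CPM in control to 117, 126 and 148 CPM with DB2313. The groups were far apart. The mean was 1.94-fold higher (log2 fold change 0.96 ± 0.10, edgeR adjusted p = 1.6e-05), and the call held in all 15 alternatives. Hmox1, the heme-degrading enzyme, rose from 178 ± 9.68 to 209.7 ± 7.20 CPM (SD, n = 3 each; log2 fold change 0.24 ± 0.07, edgeR adjusted p = 0.0437). That call was lost in 8 of 15 alternatives. Of the fits that left out a library, only the one without DB2313 replicate 3 kept it. Over the 15, the log2 fold change of Hmox1 was 0.19 to 0.26. Cd163, the receptor for hemoglobin bound to haptoglobin, had 36, 20 and 23 counts in control and 0, 5 and 8 with DB2313. Cd163 passed the test (log2 fold change -2.71 ± 0.64, edgeR adjusted p = 0.0123) but missed the threshold without control replicate 1 (0.0874) and without DB2313 replicate 2 (0.0671, both edgeR adjusted p). It passed the filter through the control libraries alone, since 3 of them and 0 of the DB2313 libraries reached the cutoff of 0.613 CPM.

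**Figure D4:**
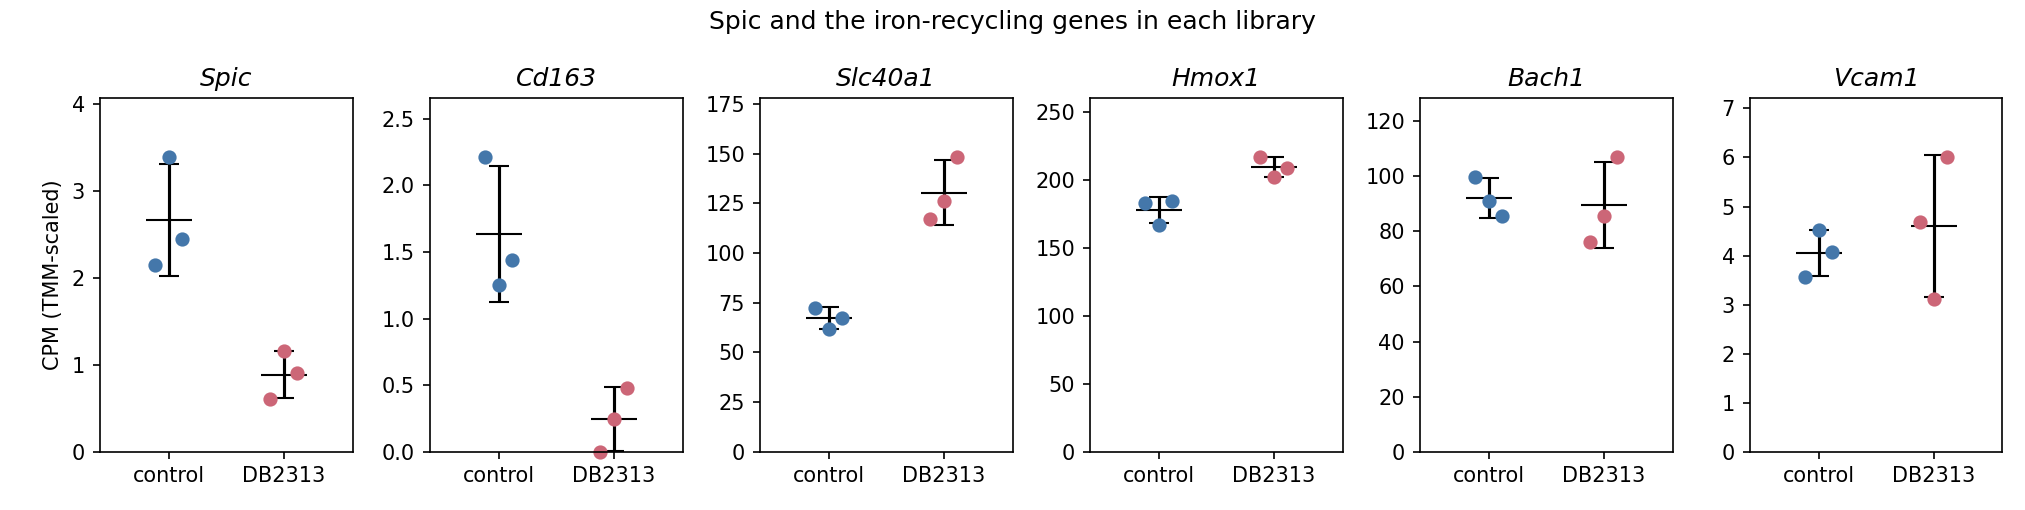
CPM of Spic and 5 iron-recycling genes in each library, with control in blue, DB2313 in red, and mean and SD (n = 3) as lines. Spic and Cd163 are lower, and Slc40a1 and Hmox1 higher, in all DB2313 libraries than in any control library, whereas Bach1 and Vcam1 overlap.

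The study used DB2313 to block PU.1, and 40 genes widely described as PU.1 targets were counted. With DB2313, 11 fell, 3 rose and 26 did not pass, so 35.0% were called, against 10.6% of all genes tested. The list was written with earlier results of these data known, so this share is not a test of PU.1 targets. When 1 library was left out, 7 to 14 of these genes were called lower and 1 to 4 higher. With the replicate block 8 were lower and 1 higher. With all libraries the median log2 fold change of the 40 genes was -0.096. The 4 lowest were Cd14, the co-receptor for lipopolysaccharide (log2 fold change -0.88 ± 0.08), Mrc1, the mannose receptor (-0.71 ± 0.14), Il1b (-0.68 ± 0.13) and the scavenger receptor Msr1 (-0.67 ± 0.10). Their edgeR adjusted p ranged from 6.4e-06 to 0.00325. The 3 that rose were Aif1, a calcium-binding protein of macrophages (0.89 ± 0.12), the Fc receptor Fcgr1 (0.26 ± 0.08) and the adaptor Tyrobp (0.21 ± 0.06). Only Aif1 of these 3 held its call in all 15 alternatives. Cd14 fell from 171 ± 9.87 to 92.8 ± 7.71 CPM (SD, n = 3 each).

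Markers of other cells moved beside these changes. Of all genes tested, 5.94% were called lower and 4.66% higher, and 12.9% had each DB2313 library above each control library. The marker lists were also written with earlier results of these data known. All 8 dendritic cell markers had a log2 fold change below 0, from -0.58 to -0.08, and Itgax and Batf3 were called lower. When 1 library was left out, 1 to 4 dendritic cell markers were called lower, 4 without DB2313 replicate 1 or 3. Of 6 macrophage markers, 2 were lower, among them Csf1r, and 1 (Fcgr1) was higher, with a median log2 fold change of -0.19. The call of Fcgr1 was lost in 10 of 15 alternatives, and without DB2313 replicate 2 none of the 6 was called. Itgax, Csf1r and Fcgr1 are also among the PU.1 targets above. Of 7 neutrophil markers, 2 (Elane and Ly6g) were higher and none lower, and for 4 of the 7 each DB2313 library was above each control library. Over the alternatives 2 to 5 neutrophil markers were higher, 4 with library totals and 5 without DB2313 replicate 3. With no filter or with the gene-length offset, 4 were higher and 1 lower. With the replicate block and the offset together, 3 were higher and 1 lower, and without DB2313 replicate 1, 2 were higher and 1 lower. Of 6 mast cell and basophil markers 1 (Fcer1a) was higher, 0 were called without any 1 of the 3 control libraries or without DB2313 replicate 1 or 2, and 2 were higher without DB2313 replicate 3. Of the 9 T cell markers 0 were called with all libraries in edgeR, DESeq2 or limma-voom, with 2 at an unadjusted p under 0.05 in edgeR. In edgeR 1 T cell marker was higher with no filter on low counts, and 2 were higher without DB2313 replicate 3. The part of these shifts in the falls of Etv3, Ets2 and Spic was not tested.

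**Figure D5:**
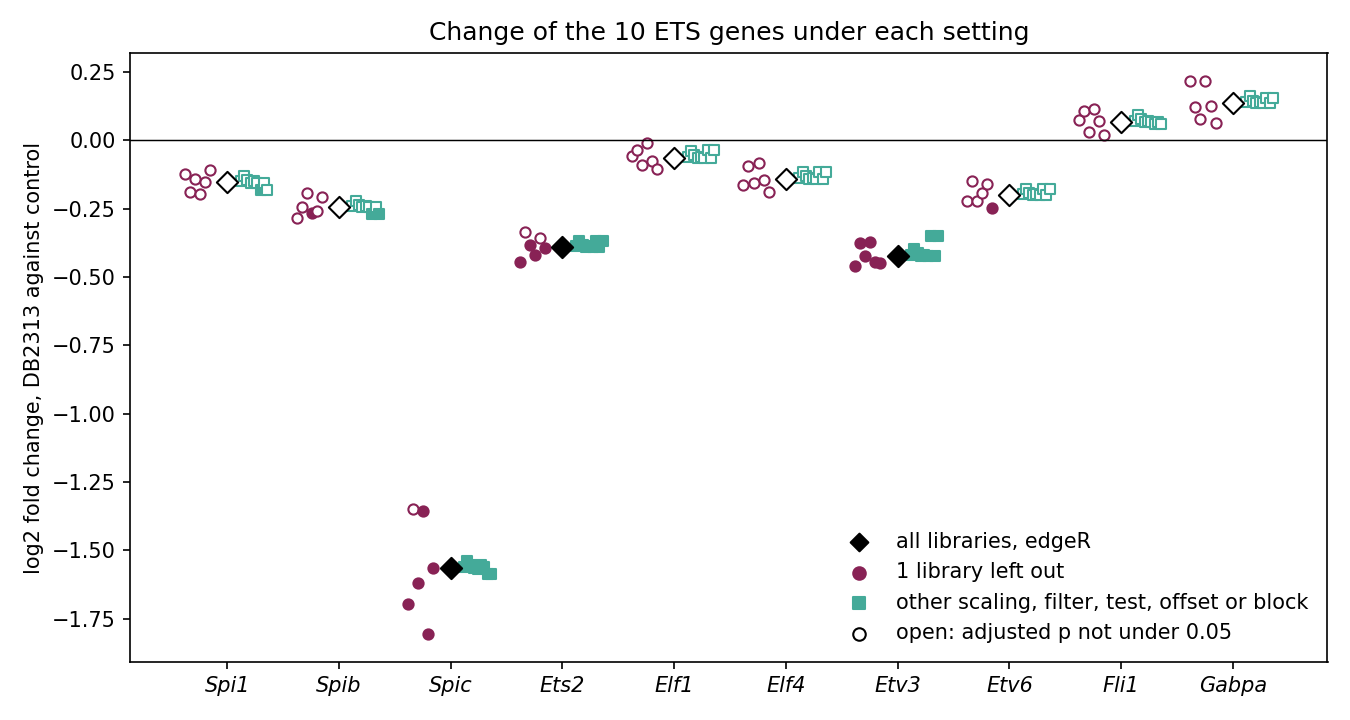
Log2 fold change of the 10 genes with all libraries (diamonds), with 1 library left out (circles) and under the other 9 alternatives (squares). Filled points have an adjusted p under 0.05, and no gene changes sign.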

How the data were processed

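The labels listed CASAVA 1.8, HISAT2 2.0.5 and featureCounts 1.5.0-p3, whereas the methods of the study named LifeScope for alignment and counting. The deposited values were raw counts of reads per gene for 6 libraries, none pooled, beside a length in bp for each gene. The genome build was not given in the sources used here. Start and end were identical to GENCODE M21 for 98.33% of 54409 common identifiers and for all 10 ETS genes, so coordinates are GRCm38. Columns were matched to samples by the meaning of their names and their numbers. Nothing said whether libraries came from separate cultures, so p-values measure the spread between these samples, which may be technical. The labels gave no batch. The values of 2 genes of the marker lists are not reported here.

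edgeR 4.0.16 in R 4.3.3 was fitted to all genes after filterByExpr, with TMM scaling and the group as the only term. Log2 fold changes are DB2313 against control, and the SE is the size of the change divided by the square root of the F statistic. RPKM was computed from TMM-scaled totals and the deposited lengths. Near-identical stretches were searched with blastn 2.17.0. The scripts were tested on simulated data. DESeq2 1.42.0, the method named by the study, and limma-voom (limma 3.58.1) were alternatives, as were other scalings and filters, a gene-length offset (lowess, span 0.3), a replicate block and the omission of each library. The ETS genes and the gene lists (other ETS genes, partners, PU.1, GABP and iron-recycling genes, cell markers) were written from general knowledge with earlier results of these data known. All ETS genes described were named. Other ETS genes, partners, iron-recycling and GABP genes were named when called, and at most 4 PU.1 targets in each direction; further genes were chosen after their values were seen.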

Additional observations from a re-analysis of the deposited data

How the results depend on the processing

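None of the 10 ETS genes changed sign in any of the 15 alternatives. The count of these genes called changed, all lower, was 3 with all libraries and in 7 alternatives that kept every library, 4 with the replicate block and the gene-length offset together, and 5 with the offset alone, which added Spi1 and Spib. It ranged from 1 to 4 when 1 library was left out. The lowest came without control replicate 2, where only Etv3 was called. The cause was not tested. Replicate numbers gave no sign of pairing, with correlations of deviations of -0.0080, -0.019 and -0.15, but so few libraries cannot exclude it. With the replicate block 502 genes were higher and 629 lower.

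Over all genes, 1503 were called with all libraries, and 739 to 2408 (328 to 1097 higher and 411 to 1311 lower) when 1 library was left out. The count was 739 without DB2313 replicate 2, 846, 796 and 854 without control replicates 1, 2 and 3, and 2408 without DB2313 replicate 3. Of the genes in the other ETS, partner and target lists, 18 were called, and 10 to 22 when 1 library was left out (2 to 6 higher and 8 to 17 lower). The 5 higher became 2 with the gene-length offset, 2 with the replicate block and 2 with both. Depth limited Spic, Cd163, Erg and Ehf, which had fewer than 100 counts in every library.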

Other observations

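ETS genes of other tissues were near the limit of detection. Etv2, Fev and Spdef had 0 counts in all 6 libraries, Elf3 had 1 count in each of 2 DB2313 libraries and none elsewhere, and Etv4 had 2 to 12 counts per library. Etv1 had 6, 15 and 13 counts in control replicates 1 to 3 and 2, 5 and 8 with DB2313. Elf5, a factor of epithelial cells, had 10 counts in DB2313 replicate 1 and 0 in the other 5 libraries. These genes did not pass the filter and were not tested.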
